A study of Bos taurus with 12 samples.

Results

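CREM, the gene of the cAMP-responsive element modulator, was read by 6 of the 24016 probe sets tested, and each was kept separate here. They were taken as every probe set that the platform annotation gives the symbol CREM. The gene was picked because its probe sets were known to differ in their change after treatment, so its values in these comparisons are a description and carry no p-value. The cells were cultured bovine chromaffin cells from adrenal glands, hybridised to 12 single-colour Affymetrix arrays. They were untreated, or exposed for 24 h to 10 nM interleukin-6 (IL6), for 24 h to 1 nM human interferon α (IFNα), or for 6 h to 10 µM histamine. Each of the 4 groups had 3 arrays. The labels give no culture time for the untreated cells, and histamine was given for 6 h, the cytokines for 24 h. Time and agent therefore cannot be told apart wherever histamine is compared with another group. The submitters call the triplicates technical repeats, so p-values reflect the variation among arrays alone.

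CREM is a basic leucine zipper transcription factor that binds the cAMP response element, a short promoter motif, as do its closest relatives CREB1 and ATF1. Protein kinase A and calcium-dependent kinases phosphorylate these factors. The CREM gene gives activators and repressors through alternative splicing and alternative promoters. One of its products, the inducible cAMP early repressor (ICER), starts at an internal promoter that is itself switched on by cAMP signalling and then restrains cAMP-responsive genes, a loop best known in neuroendocrine tissues. In chromaffin cells histamine acts through receptors coupled to calcium, whereas IL6 acts through gp130 and STAT3 and IFNα through the type I interferon receptor. The sources used here do not say which CREM transcript each probe set reads, and probe sequences were not used.

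The probe set names carry 4 sequence cluster numbers, with Bt.16837 and Bt.24779 holding 2 CREM probe sets each and Bt.22472 and Bt.17827 holding 1 each. All values are log2 expression after robust multi-array averaging (RMA), on which a step of 1 is a doubling. The values carry no detection calls. The lower quartile of an array, 5.02 to 5.11, serves as a mark of dim signal. A probe set's signal also depends on its probes, so levels are compared between groups and not read as amounts of transcript between probe sets.

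The cells carried chromaffin markers at high signal, and the IL6 and IFNα groups matched their labels at SOCS3 and MX1. No gene was set as a check of the histamine label. Genes were called, and are said to rise or fall, where limma gave an adjusted p under 0.05 and the difference was 1.5-fold or more. The mean of 7 such markers, TH, DBH, PNMT, CHGA, CHGB, CYB561 and PENK, was 12.36 to 12.42 on untreated arrays. SOCS3, a feedback gene of IL6 signalling, rose by 1.28 after IL6, and MX1, an interferon-induced antiviral gene, rose by 4.40 after IFNα (limma, adjusted p = 3.58e-08 and 1.74e-13). The untreated mean of this SOCS3 probe set was dim, at 4.65, and the other SOCS3 probe set had 0.51 after IL6, under 1.5-fold. Arrays IL6 2, IL6 3 and IFNα 3 stood apart in hypoxia and glycolysis genes and are called the 3 hypoxia-high arrays below. The mean difference of 21 such genes from the untreated group was 0.66 and 1.03 on the first pair and 0.73 on the third, beside 0.05 on array IL6 1, -0.07 and -0.06 on the other IFNα arrays and 0.23 to 0.26 on the histamine arrays.

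Bt.22472.1.S1_at gave the clear CREM signal and was higher after histamine and after IL6. The untreated arrays read 8.26, 8.40 and 8.25, and the IL6 arrays read 9.77, 9.57 and 9.56. The IFNα arrays read 7.97, 8.01 and 8.40, and the histamine arrays read 10.93, 10.80 and 10.81. All histamine arrays lay above all IL6 arrays, all IL6 arrays lay above all untreated and IFNα arrays, and the untreated and IFNα arrays overlapped. Group means were 8.30 ± 0.08 in untreated cells, 9.63 ± 0.12 after IL6, 8.13 ± 0.24 after IFNα and 10.85 ± 0.07 after histamine (SD, n = 3 each). The log2 difference from untreated was 2.54 after histamine (5.83-fold, SE 0.10) and 1.33 after IL6 (2.51-fold, SE 0.10). After IFNα it was -0.18 (SE 0.10). The histamine difference was the tenth highest of all probe sets tested and the IL6 difference ranked 64 from the top. Histamine at 6 h exceeded IL6 at 24 h by 1.21, and the lowest histamine array stood 1.03 above the highest IL6 array. In rank on the arrays this probe set went from a mean percentile of 74.8 in untreated cells to 89.6 after IL6 and 96.3 after histamine.

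**Figure D1:**
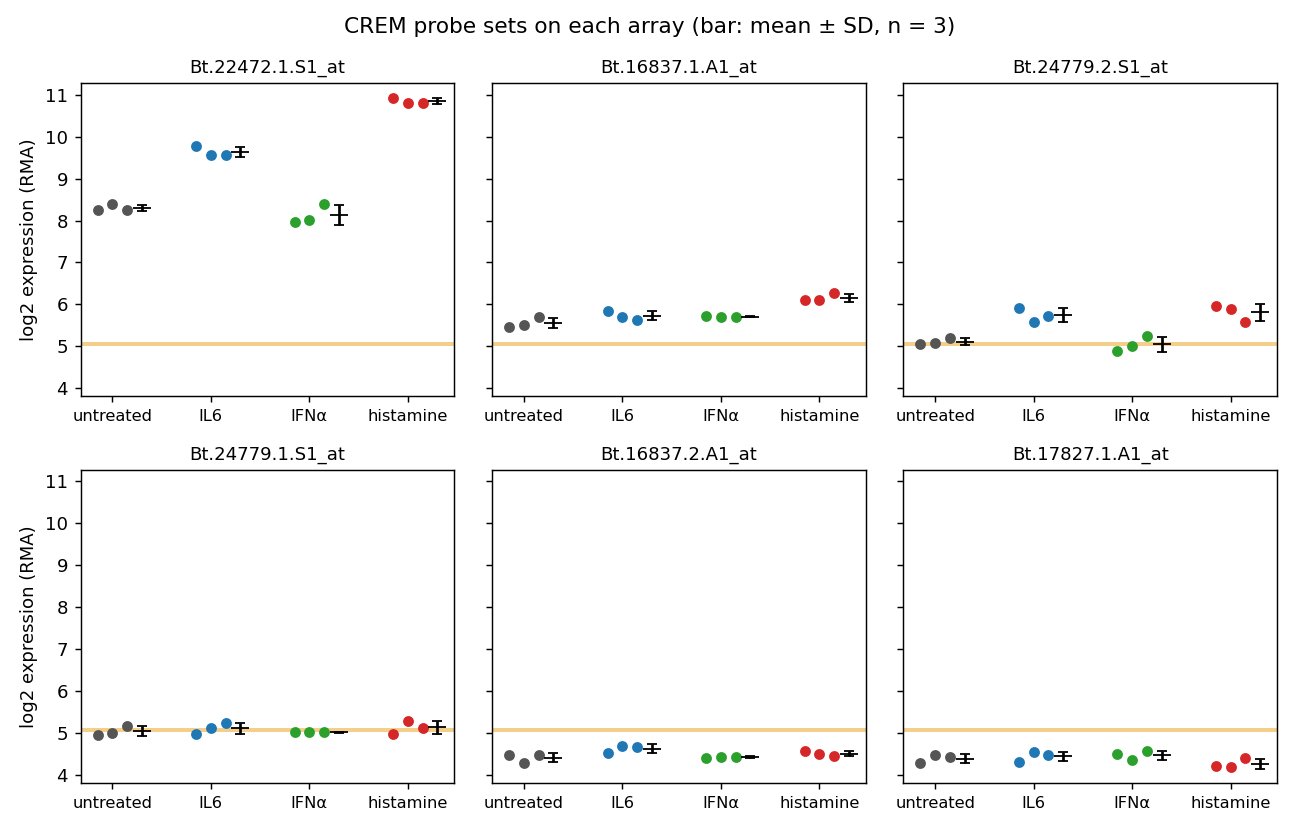
Log2 expression of the 6 CREM probe sets on each of the 12 arrays, by group (points, 3 arrays a group; bar, mean ± SD); the shaded band is the range of the arrays' lower quartiles, 5.02 to 5.11. Bt.22472.1.S1_at stands well above the band and steps up after IL6 and histamine, Bt.16837.1.A1_at lies above it with a smaller step, Bt.24779.2.S1_at and Bt.24779.1.S1_at cross it, and the other 2 lie below it.

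Inside the cytokine groups, the hypoxia means can be set beside this probe set on only 3 arrays a group. The IL6 array with the lowest hypoxia mean had the highest CREM value, 9.77, and the IFNα array with the raised mean had the highest of its group, 8.40. When the 3 hypoxia-high arrays were left out, the IL6 difference was 1.47, resting on a single IL6 array. The part of hypoxia in the CREM values was not tested. Markers of other adrenal cells moved with the treatments too. Among all probe sets, 1.44% were called higher and 0.949% lower after IL6, 2.18% and 1.18% after IFNα, and 2.99% and 2.71% after histamine. An unadjusted p under 0.05 was reached by 31.0%, 28.1% and 39.2% of all probe sets after IL6, IFNα and histamine. Adrenal cortex markers had array means of -0.54 to -0.45 relative to untreated after IL6 (3 of 8 fell), -0.72 to -0.63 after IFNα (5 of 8 fell) and 0.44 to 0.49 after histamine (2 of 8 rose), from an untreated level of 6.93 to 6.95. Fibroblast markers lay at -0.20 to -0.13, -0.18 to -0.11 and 0.26 to 0.39 in the same order, with 1 of 6 rising after histamine and none called after the cytokines (3 of 6 at an unadjusted p under 0.05 in each). Leukocyte markers lay at 0.32 to 0.38 (2 of 7 rose, 1 fell), -0.06 to -0.03 (none called, 3 at an unadjusted p under 0.05) and 0.16 to 0.20 (1 of 7 rose). Endothelial markers lay at -0.43 to -0.16 over the 3 treatments, with 1 of 6 falling in each. The 3 measured Schwann cell markers lay at -0.26 to 0.02, with none called and 2 at an unadjusted p under 0.05 in each. Chromaffin markers lay at -0.48 to -0.04, -0.06 to 0.28 and 0.14 to 0.31. Of the 7, 1 fell after IL6 and 1 rose after histamine, PNMT both times, with -0.71 and 2.29. None was called after IFNα, with 2 at an unadjusted p under 0.05. After histamine the 7 ran from -0.58 to 2.29, with a median of 0.05. In bulk RNA, fewer cells of a type and less RNA per cell cannot be told apart. The part of other cell types in the CREM values was not tested.

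Bt.24779.2.S1_at was also higher after IL6 and histamine, but by less and without a step between them. It read 5.05, 5.09 and 5.20 on the untreated arrays and 5.91, 5.57 and 5.73 after IL6. After IFNα it read 4.90, 5.01 and 5.25, and after histamine 5.96, 5.89 and 5.58. The IL6 and histamine arrays overlapped each other and lay above all untreated and IFNα arrays, which overlapped in turn. The log2 difference from untreated was 0.62 after IL6 (1.54-fold, SE 0.12), 0.70 after histamine (1.62-fold, SE 0.12) and -0.06 after IFNα (SE 0.12). Its untreated mean of 5.11 sat on the dim mark, and 2 of 12 arrays were below their lower quartile, so these folds start from little signal. Histamine minus IL6 was 0.07, against 1.21 at Bt.22472.1.S1_at. The IL6 value was 0.54, under the 1.5-fold mark of 0.58, without array IL6 1, and 0.48 with array weights.

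Bt.16837.1.A1_at was higher after histamine, and its IL6 and IFNα arrays stayed close to untreated. It read 5.47, 5.52 and 5.70 on the untreated arrays and 6.11, 6.10 and 6.28 after histamine, with no overlap. The IL6 arrays read 5.85, 5.71 and 5.64 and overlapped the untreated arrays. The IFNα arrays read 5.72, 5.70 and 5.71, the lowest of them level with the highest untreated array. The log2 differences were 0.60 after histamine (1.52-fold, SE 0.08), 0.17 after IL6 and 0.15 after IFNα (SE 0.08 each). The histamine value sat close to the 1.5-fold mark. It dropped under the mark with array weights and without array untreated 1, untreated 2 or histamine 3, and its lowest value without a single array was 0.54.

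The other 3 probe sets lay near or below the lower quartile, and none of their group differences reached 1.5-fold. Bt.24779.1.S1_at, of the same cluster as Bt.24779.2.S1_at, was below the lower quartile on 6 of 12 arrays. It read 4.96 to 5.18 in untreated cells, 4.98 to 5.23 after IL6, 5.02 to 5.03 after IFNα and 4.99 to 5.30 after histamine. Its groups all overlapped, and its log2 differences were 0.06, -0.03 and 0.09. Bt.16837.2.A1_at was below the lower quartile on all 12 arrays. It read 4.48, 4.29 and 4.47 in untreated cells, 4.52, 4.69 and 4.68 after IL6, 4.41 to 4.44 after IFNα and 4.45 to 4.57 after histamine. Its IL6 arrays lay above the untreated ones by a margin of 0.04, with a log2 difference of 0.22 (SE 0.07), whereas the differences after IFNα and histamine were 0.01 and 0.10. Bt.17827.1.A1_at was below the lower quartile on all 12 arrays too, ran from 4.20 to 4.57, overlapped in every comparison with untreated and had differences of 0.06, 0.08 and -0.12.

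**Figure D2:**
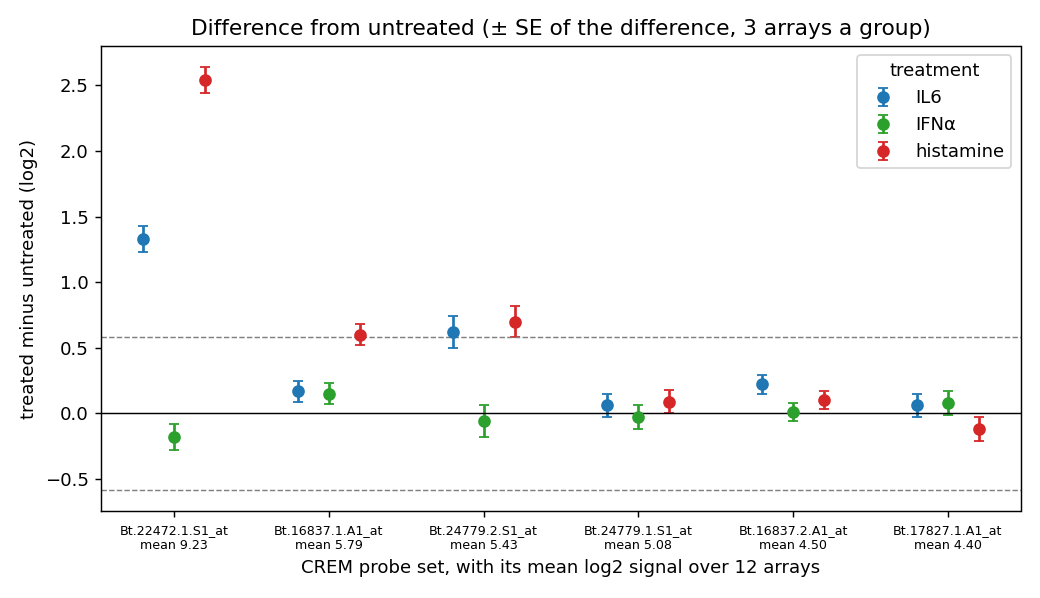
Log2 difference from untreated cells (vertical axis, ± SE from the fit of all probe sets, 3 arrays a group) for each CREM probe set, ordered by its mean signal over 12 arrays; dashed lines mark a 1.5-fold difference. After histamine the differences run from 2.54 at Bt.22472.1.S1_at to -0.12 at Bt.17827.1.A1_at.

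Counted over the 6 probe sets, histamine arrays lay above untreated arrays without overlap in 3, and IL6 arrays in 3. Over all probe sets tested such separation upward held for 21.3% after histamine and 15.2% after IL6. A log2 difference of at least 0.58, or 1.5-fold, was reached by 3 of 6 after histamine and 2 of 6 after IL6, where 3.03% and 1.60% of all probe sets did so upward. After IFNα no CREM probe set separated from untreated in either direction or reached 1.5-fold, where 32.9% of all probe sets separated, 2.31% were at least 1.5-fold higher and 1.21% at least 1.5-fold lower. CREM was picked on these contrasts, and nothing is read from its counts against these shares.

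The answer for the gene therefore depends on how its probe sets are combined. The mean of the 6 differences was 0.65 after histamine and 0.41 after IL6, and the median was 0.35 and 0.19. The mean is above the 1.5-fold mark after histamine and below it after IL6, while the median is below it in both and Bt.22472.1.S1_at is above it in both. After IFNα the mean and the median were 0.00 and -0.01.

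Between probe sets, the differences spanned 2.66 after histamine, 1.27 after IL6 and 0.32 after IFNα. For 2913 genes with several probe sets the median span was 0.16, 0.13 and 0.12. CREM had the widest span after histamine, ranked 5 after IL6 and 302 after IFNα. A span can only grow with the number of probe sets, so CREM was also set among the 31 genes with 6 or more. There it ranked 1, 1 and 15. CREM was picked because its probe sets were known to differ, so nothing is read from any of these ranks. After histamine, MEST, TCN2, TAC1 and VLDLR, chosen after their values were seen, had the next widest spans.

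**Figure D3:**
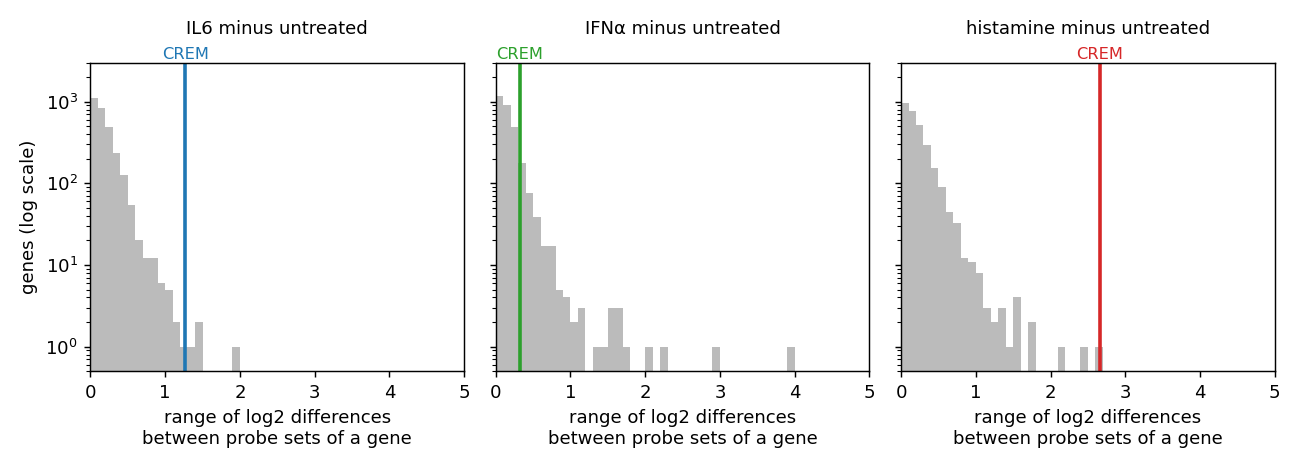
Number of genes (log scale) by the span of log2 differences between their probe sets, for 2913 genes with several probe sets in each comparison with untreated cells; the line marks CREM. CREM lies at 1.27 after IL6, at 0.32 after IFNα and at 2.66 after histamine, the widest of that panel.

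Flat dim probe sets beside one that moved were found for other genes as well. After histamine, 34 other genes with several probe sets had a difference of at least 2-fold at the probe set with the highest mean, and 19 of them had another probe set under 1.5-fold. In 6 of the 34 genes another probe set lay below the lower quartile on all arrays, and in 6 of these 6 it was under 1.5-fold. In 15 of the 34 genes another probe set had a mean above the median signal of at least one array, and in 4 of these 15 one such probe set was under 1.5-fold. After IL6 the same counts were 8 of 24 genes in all, 3 of 3 with a dim probe set and 1 of 12 with a brighter one. These genes were selected for a 2-fold difference at their brightest probe set. Their dim probe sets were selected as dim on the treated arrays too, so one that rose clearly would tend to drop out. Nothing about dim signal is read from these counts. Within CREM, Bt.24779.2.S1_at, with a mean signal of 5.43, had 0.70 after histamine (SE 0.12). Bt.16837.1.A1_at, with a mean signal of 5.79, had 0.60 (SE 0.08), so the order of these differences is not resolved. The part of signal level in the CREM differences was not tested.

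Across the 12 arrays, Bt.22472.1.S1_at correlated with Bt.24779.2.S1_at at r = 0.91 and with Bt.16837.1.A1_at at r = 0.84. With Bt.24779.1.S1_at, Bt.16837.2.A1_at and Bt.17827.1.A1_at the values were 0.38, 0.46 and -0.48. These are descriptions of 12 arrays that fall into 4 groups. After the group means were subtracted, r was 0.69 with Bt.24779.2.S1_at and 0.10 with Bt.16837.1.A1_at.

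The transcripts most like Bt.22472.1.S1_at over the 12 arrays were those of RASD1, PAM, MSN, C5H12orf75 and FAM171A1, with Pearson correlations of 0.993, 0.990, 0.987, 0.986 and 0.985. RASD1 encodes a small G protein of the Ras family. It was close to Bt.22472.1.S1_at in size too, with log2 differences of 1.49 after IL6, -0.31 after IFNα and 2.47 after histamine (SE 0.11 each). FAM171A1 had 0.71, -0.10 and 1.80 (SE 0.06 each). PAM, the enzyme that amidates peptide hormones, shared the order of the groups at a smaller scale, with 0.32, -0.05 and 0.72 (SE 0.04 each). MSN, the membrane-to-actin linker moesin, had 0.33, -0.15 and 0.76, and C5H12orf75 had 0.21, -0.01 and 0.50. They were chosen for this likeness, so no test is given. Of 24010 other probe sets 506 (2.11%) had a correlation above 0.9 with Bt.22472.1.S1_at, and 504 (2.10%) had one below -0.9. When the 3 hypoxia-high arrays were left out, 2 of the 5 names, RASD1 and PAM, stayed in the top 5.

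**Figure D4:**
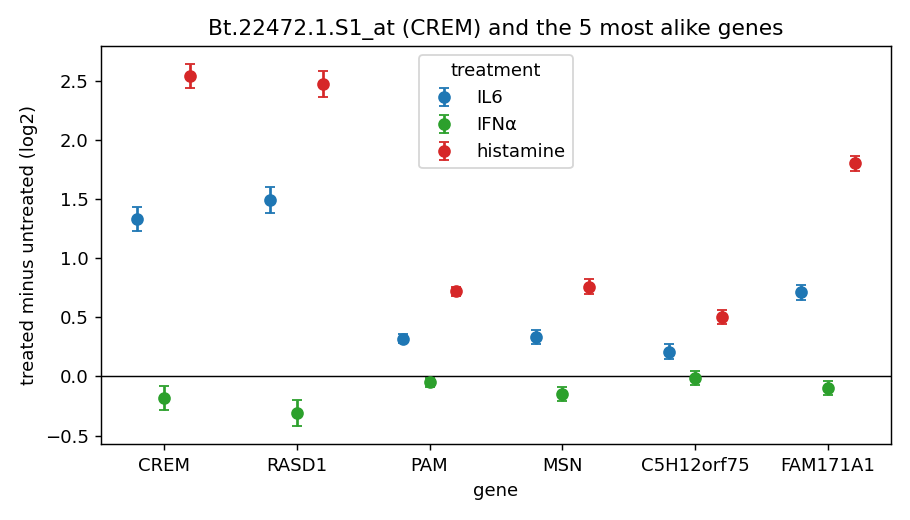
Log2 difference from untreated cells (± SE from the fit, 3 arrays a group) for CREM at Bt.22472.1.S1_at and for the 5 genes most correlated with it over the 12 arrays. RASD1 lies close to this CREM probe set in each treatment (2.47 against 2.54 after histamine), and the others keep the order of the groups at smaller differences.

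The weaker CREM probe sets had other nearest patterns. For Bt.16837.1.A1_at they were UNC13B, a vesicle priming protein, UTP15 and GAR1, both of ribosome assembly, C29H11orf98 and C3H1orf52 (r from 0.965 to 0.980). GAR1 had log2 differences of 0.18, 0.10 and 0.93 after IL6, IFNα and histamine. For Bt.24779.2.S1_at they were CERS2, a ceramide synthase, MOSPD1, CFL1 (cofilin), DPM2 and TPM4, a tropomyosin (r from 0.946 to 0.951). CFL1 had 0.45, -0.01 and 0.62. A correlation above 0.9 was found for 296 probe sets (1.23%) with Bt.16837.1.A1_at and for 62 (0.258%) with Bt.24779.2.S1_at, and one below -0.9 for 152 (0.633%) and 211 (0.879%). The lists for the 3 CREM probe sets shared no gene.

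The factors that bind the same motif, and their coactivators, were measured next. Of 9 measured members of this list, 0 were called after IL6, IFNα or histamine, and 5 of 9 had an unadjusted p under 0.05 in each comparison, beside the shares of 31.0%, 28.1% and 39.2% given above. CREB1 read 5.80 ± 0.07 in untreated cells and 5.95 ± 0.16, 5.92 ± 0.14 and 5.70 ± 0.08 after IL6, IFNα and histamine (SD, n = 3). ATF1 had log2 differences of -0.23, -0.04 and 0.16 at the probe set that represents it. CRTC1, a CREB coactivator, and FHL2, a LIM-domain cofactor, both chosen after their values were seen, had -0.52 and 0.52 after histamine. The other 3 CRTC1 probe sets had -0.04 to 0.08 there, and CRTC1 had -0.38 after IL6 and -0.39 after IFNα. The list gained 1 call after histamine without array untreated 3. CUL2, next to CREM in the ARS-UCD2.0 annotation and added after the data were seen, had -0.27, 0.07 and 0.02.

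A protein kinase A catalytic subunit moved in opposite directions in the 2 conditions in which Bt.22472.1.S1_at was higher. PRKACB rose after histamine, from 10.03 ± 0.10 to 10.74 ± 0.05 (SD, n = 3; log2 difference 0.71, SE 0.11; limma, adjusted p = 0.000169). After IL6 it fell to 9.27 ± 0.21, a log2 difference of -0.76 (limma, adjusted p = 0.000249), or -0.55, under 1.5-fold, without the 3 hypoxia-high arrays. Its other probe set had 0.46 after histamine and -1.02 after IL6. PRKACA, another catalytic subunit, added after its values were seen, had 0.01 and -0.08 in the same order and was not called. The regulatory subunit PRKAR2A rose after histamine by 0.84 (SE 0.05), and GNAI1, an inhibitory G protein subunit, by 0.59. The call of GNAI1 was lost without array untreated 3 (0.58), histamine 1 (0.58) or histamine 3 (0.56). AKAP5, which anchors the kinase, fell by 0.77 after histamine and by 0.71 after IL6, and its other probe set had -0.34 and -0.32. ADCY2, an adenylyl cyclase, fell by 0.92 after IFNα. GNAS, a G protein subunit chosen after its values were seen, was not called at the probe set that represents it. That probe set had an untreated mean of 13.59 and differences of 0.06, -0.05 and -0.02 after histamine, IL6 and IFNα. In the same order the other GNAS probe sets had -0.06 to 1.24, 0.06 to 1.07 and -0.02 to 0.76.

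In all, of 24 measured genes of cAMP and protein kinase A signalling, 3 rose and 1 fell after histamine, none rose and 2 fell after IL6, and none rose and 1 fell after IFNα. Of all probe sets, 2.99%, 1.44% and 2.18% rose and 2.71%, 0.949% and 1.18% fell after histamine, IL6 and IFNα. The list medians were 0.03, -0.02 and -0.05, beside 0.00, 0.00 and -0.02 over all probe sets. Without the 3 hypoxia-high arrays the IL6 count was 1.

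Of 18 measured calcium and MAP kinase genes that lead to CREB, 2 rose and 2 fell after histamine. After IL6, 2 rose and none fell, and after IFNα none rose and 1 fell. The medians were 0.07, -0.03 and -0.16, beside 0.00, 0.00 and -0.02 over all probe sets. Of all probe sets, 2.99%, 1.44% and 2.18% rose and 2.71%, 0.949% and 1.18% fell in the same order. After histamine RPS6KA3, the CREB kinase RSK2, rose from 6.66 ± 0.08 to 8.74 ± 0.09 (SD, n = 3; log2 difference 2.07, SE 0.13; limma, adjusted p = 3.48e-08). RPS6KA5, the kinase MSK1, fell by 1.17 (SE 0.09) and CAMK2G by 0.90, while another CAMK2G probe set had -0.01. RCAN1, an inhibitor of calcineurin, rose by 0.82. After IL6, PPP3CC, a calcineurin catalytic subunit, rose by 0.96 and MAPK3 by 0.69. The other 2 PPP3CC probe sets had 0.15 and 0.22. RCAN2 fell by 0.85 after IFNα, to a mean of 4.69 that lay among dim signal.

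Early response genes are classical targets of cAMP and calcium signalling. Of 29 measured members 9 rose and 2 fell after histamine, beside 2.99% and 2.71% of all probe sets. The other 18 were not called, and the median was 0.27, beside 0.00 over all probe sets. NR4A1, an orphan nuclear receptor, went from 6.08 ± 0.07 to 8.44 ± 0.11 (SD, n = 3; log2 difference 2.36, SE 0.19; limma, adjusted p = 3.78e-07). FOS rose by 2.00 (SE 0.17), EGR1 by 1.98 (SE 0.18) and CITED2 by 0.87 (SE 0.06). The other probe sets of FOS and EGR1 had 1.54 and 0.39, so EGR1 also differed between its probe sets. NR4A2, a relative of NR4A1, rose by 0.83, and its other 3 probe sets had -0.14 to 0.20. The falls were ATF3, with -0.73, and KLF4, with -0.80. KLF4 and the histamine values of ATF3 and NR4A2 were chosen after they were seen.

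After IL6, 5 of the 29 early response genes rose and 1 fell, beside 1.44% and 0.949% of all probe sets. Their median was 0.19, beside 0.00 over all probe sets. TRIB1, a pseudokinase, rose from 7.53 ± 0.12 to 9.34 ± 0.22 (SD, n = 3; log2 difference 1.81, SE 0.10; limma, adjusted p = 1.43e-08), and its other probe set had 0.82. After histamine TRIB1 rose by 0.84, and its other probe set had 0.23, under 1.5-fold. The transcription factors ATF3 and JUNB rose by 1.07 and 0.73. After histamine JUNB had 0.48, under 1.5-fold (limma, adjusted p = 0.0263). After IL6 JUNB had 0.35, under 1.5-fold, without the 3 hypoxia-high arrays. NR4A2, which rose after histamine, fell by 0.85 after IL6, and its other 3 probe sets had -0.09 to 0.06. NR4A1, FOS and EGR1 had 0.18, 0.50 and 0.46 after IL6 and were not called. The difference between IL6 and histamine was not tested for these genes. It also sets 24 h of IL6 against 6 h of histamine, so time and agent cannot be told apart in it.

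After IFNα, where 2.18% of all probe sets rose and 1.18% fell, none of these 29 genes rose and 3 fell. They were ATF3, PPARGC1A and SGK1, with log2 differences of -0.83, -0.64 and -0.65. The other probe sets of PPARGC1A had -0.48 to -0.28, all under 1.5-fold, and those of SGK1 had -0.62 and -0.06. Without array IFNα 3, one of the hypoxia-high arrays, 1 was called, ATF3, while PPARGC1A had -0.53 and SGK1 had -0.44. SGK1 also missed the adjusted p without array untreated 1 or 3 (limma, adjusted p = 0.0615 and 0.0571), and PPARGC1A had -0.56 without array untreated 2. Bt.22472.1.S1_at had -0.18 after IFNα, as given above. The 3 comparisons share the untreated arrays.

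**Figure D5:**
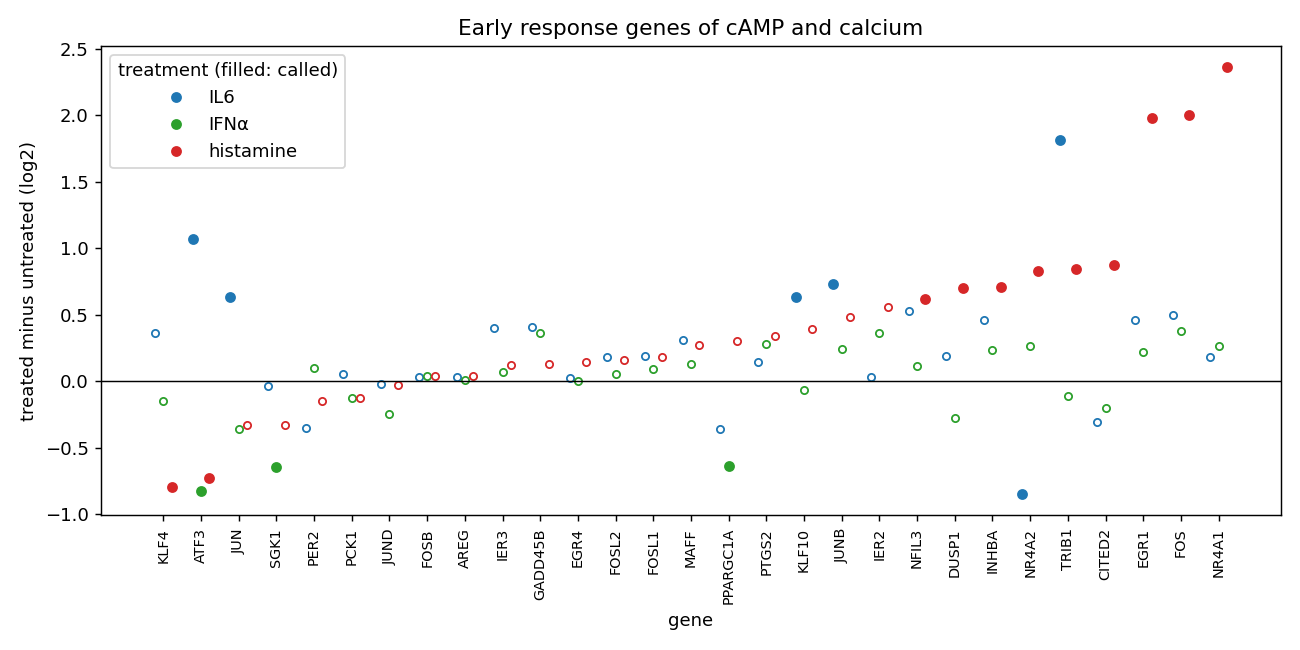
Log2 difference from untreated cells for 29 early response genes after IL6, IFNα and histamine, ordered by the histamine difference; filled points were called by limma, open points did not. NR4A1, FOS and EGR1 lead after histamine with 2.36, 2.00 and 1.98, TRIB1 and ATF3 lead after IL6 with 1.81 and 1.07, and no gene passed upward after IFNα.

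Catecholamine enzymes and neuropeptides, several of which carry cAMP response elements in their promoters, rose in larger number after histamine. TAC1, which encodes substance P, rose by 4.75 (SE 0.09) and VIP by 4.05 (SE 0.09) on the log2 scale. Their untreated means, 4.26 and 4.86, were dim, under every lower quartile, so these folds start from little signal. PNMT, the enzyme that makes adrenaline, rose by 2.29 (SE 0.23) and GAL, the galanin gene, by 1.64 (SE 0.03). Of 17 measured members 9 rose and none fell, beside 2.99% and 2.71% of all probe sets. The list median was 0.71, beside 0.00 over all probe sets. After IL6, 3 rose and 1 fell, beside 1.44% and 0.949% of all probe sets, with a median of 0.06 beside 0.00. GAL rose by 1.45, SLC18A2, the vesicular monoamine transporter, by 0.85, and VIP, again from dim signal, by 0.80. PNMT fell by 0.71 (limma, adjusted p = 0.0451), and its call was lost in 7 of 12 fits that left out an array, with values from -0.76 to -0.48 in these. After IFNα limma called 0 of 17, with a median of 0.02, beside -0.02 over all probe sets. An unadjusted p under 0.05 was reached by 7 of 17, beside 28.1% of all probe sets. PNMT had 0.65 there, and the list gained 1 call without array IL6 1, IL6 3 or IFNα 2 and in a fit of the IFNα and untreated arrays alone.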

How the data were processed

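The deposited table holds log2 values on 12 arrays, made by the authors with RMA per the submitters' processing notes. The sources used here do not give its version or settings. A range of 2.88 to 14.14 shows the log2 scale, and no genome build is named. RMA normalises arrays to each other and compresses differences of dim probe sets. Groups, doses and times come from the labels.

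Control probe sets (112) were left out and 24016 tested. Symbols are those of the platform annotation, updated by gene identifier: 13292 probe sets have 1 symbol, 86 several and 10638 none. Differences and SEs come from limma 3.58.1 (R 4.3.3), fitted with 4 group means on 12 arrays, trended eBayes and Benjamini-Hochberg adjustment across all probe sets tested. Called means 1.5-fold or more with an adjusted p under 0.05. A listed gene is represented by its probe set with the highest mean. The procedure was tested on simulated data. Figures used matplotlib 3.10.9.

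CREM, the gene lists and the tests were chosen with earlier results of these data known. Named are all CREM probe sets, CREB1 and ATF1, up to 4 called members of each list with the largest change, the 5 genes most correlated with each CREM probe set whose group means span 1.5-fold, and SOCS3 and MX1. The number of arrays limits the precision. Alternatives were a fold minimum of 2, eBayes without a trend, array weights, other normalizations on top, a filter on the dimmer 50%, the 2 compared groups fitted on their own, a block for the repeat number, gene means, and arrays left out.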

Additional observations from a re-analysis of the deposited data

How the results depend on the processing

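Median centring, quantile normalization, cyclic loess and the replicate block moved none of the 18 CREM differences by more than the spread between arrays. Without the 3 hypoxia-high arrays (IL6 2, IL6 3 and IFNα 3), the IL6 differences were 1.47 (Bt.22472.1.S1_at), 0.29 (Bt.16837.1.A1_at), 0.80 (Bt.24779.2.S1_at), -0.07 (Bt.24779.1.S1_at and Bt.17827.1.A1_at) and 0.11 (Bt.16837.2.A1_at), and their span was 1.54. A single IL6 array then remains, and its spread is taken to equal that of the other groups. Array weights gave 0.48 for Bt.24779.2.S1_at after IL6 and left 1 CREM probe set past 1.5-fold in place of 2. With each array left out in turn, Bt.22472.1.S1_at ranged from 1.26 to 1.38 after IL6, from -0.31 to -0.10 after IFNα and from 2.50 to 2.59 after histamine, and the CREM probe sets past 1.5-fold numbered 1 to 2 after IL6 and 2 to 3 after histamine. That count was chosen as a result after seeing the data.

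At a fold minimum of 2, the called members after IL6, IFNα and histamine numbered 0, 0 and 0 for cAMP and protein kinase A signalling, 0, 0 and 2 for the calcium list, 2, 0 and 3 for early response genes, and 1, 0 and 5 for catecholamine and peptide genes. With the dimmer 50% left out there were 1 in the cAMP list after IL6, 0 in the calcium list after IFNα and 5 catecholamine and peptide genes after histamine. With probe sets averaged by gene there were 1 in the cAMP list and 1 in the calcium list after IL6, and 1 early response gene after IFNα. Without the 3 hypoxia-high arrays there were 1 in the cAMP list after IL6 and 1 early response gene after IFNα. A fit of IFNα and untreated arrays alone, and the replicate block, each called 1 catecholamine or peptide gene after IFNα in place of 0. Leaving out single arrays gave 0 to 1 CREB family calls after histamine, 1 to 3 early response calls and 0 to 1 catecholamine or peptide calls after IFNα. Of the 33 called changes of named list genes, 12 kept their call in every setting run, and none changed sign. Repeat numbers were not treated as pairing the arrays, since not every correlation between deviations of same-numbered arrays was over 0.1. They ran from -0.07 to 0.60, and 9 of 12 arrays were closest to their own number, a hint of pairing from the data and not from the design. The replicate block changed no other count of calls by over 1.5 times. Dim signal limits 4 of the 6 CREM probe sets, those with any array below the lower quartile, for which small differences show neither change nor its absence.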
